A study of Mus musculus with 10 samples.

Results

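The set described here holds 10 genes that carry dietary fat through an absorptive cell of the gut: Npc1l1, Cd36, Fabp1, Fabp2, Dgat1, Mttp, Apob, Apoa1, Apoa4 and Apoc3. They were chosen by name, as 10 of the 47069 genes in the table, and each was found there once. All 10 passed the filter on low counts, but Apoa1, Apoa4, Apoc3, Fabp1 and Npc1l1 had under 10 counts in at least 5 of the 6 DMBA, TAM long and DMBA+TAM libraries and so passed mainly through control and TAM short.

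Fat that has been digested in the gut enters enterocytes, the absorptive cells of the epithelium. Cholesterol is taken up through NPC1L1 and fatty acids partly through CD36, small binding proteins carry the fatty acids inside the cell, and enzymes such as DGAT1 join them into triglyceride. Microsomal triglyceride transfer protein, encoded by Mttp, loads this fat onto APOB, and the particle that leaves the cell, the chylomicron, carries APOA1, APOA4 and APOC3 on its surface. The pathway belongs to the small intestine much more than to the colon, and among the 10 genes Cd36 is also well known from fat cells, endothelium and macrophages.

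RNA-seq was performed on intestinal organoids of C57BL/6 strain, which carried Lgr5-EGFP-CreERT2 and Ppp2r1a flox/flox in every group and were cultured for 50 days with Noggin, EGF and R-spondin 1 in Matrigel. Cre is driven from the stem cell gene Lgr5 and acts once tamoxifen (TAM) is given, deleting exons of Ppp2r1a, the scaffold of the phosphatase PP2A. The 5 groups of 2 libraries were control (saline), DMBA (a carcinogen, labelled long), TAM at 2 settings that the labels name dosage-sensitive, one short and one long (TAM short, TAM long), and both agents (DMBA+TAM). Library titles carry DSS for both TAM groups and Lgr5 for DMBA+TAM. The sources used here do not say what these titles, dosage-sensitive, short or long mean, or whether the 2 libraries of a group came from separate cultures, so p-values measure only the spread between these libraries.

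The region before the start site is shown for the members in which a search found letters bound by HNF4 or CDX factors, since the genes of these factors were measured too (described further on). RefSeq windows of 300 bases (250 before the start site and 50 from it on, build GRCm38.p6) were matched for 8 of the 10 members, and 4 of them are printed 5′ to 3′ on the strand of the gene, with matched letters in capitals. They lie at chr12:7977427-7977726 (Apob), chr9:46240594-46240893 (Apoa4), chr6:71199629-71199928 (Fabp1) and chr3:122894822-122895121 (Fabp2), all on the plus strand.
Apob: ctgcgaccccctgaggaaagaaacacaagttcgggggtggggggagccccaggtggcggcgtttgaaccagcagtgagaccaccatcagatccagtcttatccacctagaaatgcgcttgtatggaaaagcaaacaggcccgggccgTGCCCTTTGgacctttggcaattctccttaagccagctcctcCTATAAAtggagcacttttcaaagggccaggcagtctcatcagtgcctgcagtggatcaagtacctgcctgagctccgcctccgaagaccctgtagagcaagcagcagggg
Apoa4: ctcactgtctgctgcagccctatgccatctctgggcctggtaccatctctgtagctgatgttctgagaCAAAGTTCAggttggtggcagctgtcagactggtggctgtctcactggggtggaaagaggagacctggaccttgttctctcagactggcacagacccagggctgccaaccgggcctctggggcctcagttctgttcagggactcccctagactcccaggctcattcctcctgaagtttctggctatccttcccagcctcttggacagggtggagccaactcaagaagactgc
Fabp1: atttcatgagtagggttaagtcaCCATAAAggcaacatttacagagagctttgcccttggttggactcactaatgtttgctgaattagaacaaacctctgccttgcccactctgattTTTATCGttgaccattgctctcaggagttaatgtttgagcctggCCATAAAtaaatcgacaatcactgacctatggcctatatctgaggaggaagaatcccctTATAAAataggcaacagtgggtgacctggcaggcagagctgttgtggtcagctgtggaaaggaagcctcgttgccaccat
Fabp2: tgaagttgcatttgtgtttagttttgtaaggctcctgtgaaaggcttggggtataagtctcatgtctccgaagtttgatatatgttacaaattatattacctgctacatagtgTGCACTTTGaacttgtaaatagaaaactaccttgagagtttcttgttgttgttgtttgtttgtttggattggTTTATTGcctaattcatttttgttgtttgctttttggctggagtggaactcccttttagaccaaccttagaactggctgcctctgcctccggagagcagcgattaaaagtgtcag

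The letters CAAAGNNCA, the core of an HNF4 site, were found on either strand in the windows of 3 members, beginning 103 bases before the start site in Apob, 182 before in Apoa4 and 137 before in Fabp2, against 6.36% of all 32851 windows. TTTATNG, the core of a CDX site, was found in 3 members (Apob, Fabp1 and Fabp2) and in 10.9% of windows, and in Apob it overlaps the TATA box. The site of GATA factors, written AGATAA, was found in none of the 8 members' windows and in 11.2% of all windows. The TATA box, read as TATAAA on the strand of the gene only, was found in Apob and Fabp1 and in 8.32% of windows. Positions count from the RefSeq start site, which lies 29 bases downstream of the gene start in the deposited table for Apob, 148 for Apoa4 and 52 for Fabp1, and is the same base for Fabp2. A match describes letters and does not show that a factor binds.

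In the table, which gives positions on GRCm38, 3 of the members lie side by side on chromosome 9: Apoa1 (46228580 to 46230466, plus strand), Apoc3 (46232933 to 46235636, minus strand) and Apoa4 (46240696 to 46243459, plus strand) together span 14880 bases. The other members are spread over 6 chromosomes. Apob lies on chromosome 12 (7977648 to 8016835), Fabp2 on chromosome 3 (122895072 to 122899506), Mttp also on chromosome 3 (138089854 to 138144968, minus strand), Fabp1 on chromosome 6 (71199827 to 71205023), Cd36 on chromosome 5 (17781690 to 17888801, minus strand), Dgat1 on chromosome 15 (76502015 to 76511951, minus strand) and Npc1l1 on chromosome 11 (6211013 to 6230143, minus strand). Each value is a sum over the exons of a gene. Exons of Mttp overlap those of Trmt10a on the opposite strand, which had 4 to 72 counts in a library. Whether the counting used strand is not stated in the sources used here, so the 14 to 50 counts of Mttp in the DMBA, TAM long and DMBA+TAM libraries are uncertain.

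Total counts ran from 8828247 to 10923673 in 8 libraries, but were 1592366 and 1915270 in DMBA+TAM, where low genes are measured least precisely. Ppp2r1a itself had 123 and 129 normalised CPM (counts scaled to a common library size by TMM, the unit of every level below unless FPKM is named) in control. It was not lower in any treated group: it stood at 130 and 147 in TAM short (log2 fold change 0.14 ± 0.11, SE, adjusted p = 0.459) and at 129 and 133 in DMBA+TAM (0.06 ± 0.11, adjusted p = 0.687), and it was higher in TAM long, at 169 and 157 (0.37 ± 0.11, adjusted p = 0.0213), and in DMBA, at 167 and 152 (0.34 ± 0.11, adjusted p = 0.0291). Reads of the deleted exons cannot be separated from the others, so these values do not check the TAM labels. In the library titles the letter S marks the control and TAM short groups and the letter L the DMBA and TAM long groups, without a key. A list of 9 epithelial markers (such as Epcam and Krt8) summed to between 13200 and 22700 in these 8 libraries and to 32.7 and 22.4 in DMBA+TAM, so the labelled tissue is nearly without its defining markers in DMBA+TAM. Letter, culture and treatment cannot be told apart in the comparisons of DMBA or TAM long with control.

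Together the 10 genes took 3.17% of all counts in control library 1 (exact 95% interval 3.16 to 3.18%) and 3.34% in library 2 (3.33 to 3.36%). The share was 1.57% and 1.20% for TAM short, 0.0819% and 0.0348% for DMBA, 0.102% and 0.104% for TAM long, and 0.0698% and 0.0445% for DMBA+TAM. These intervals cover counting error only. The shares of the 5 groups do not overlap except between DMBA and DMBA+TAM, and TAM short is the only treated group above 1%. In bulk samples, fewer cells of a type and less RNA per cell cannot be told apart.

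**Figure D1:**
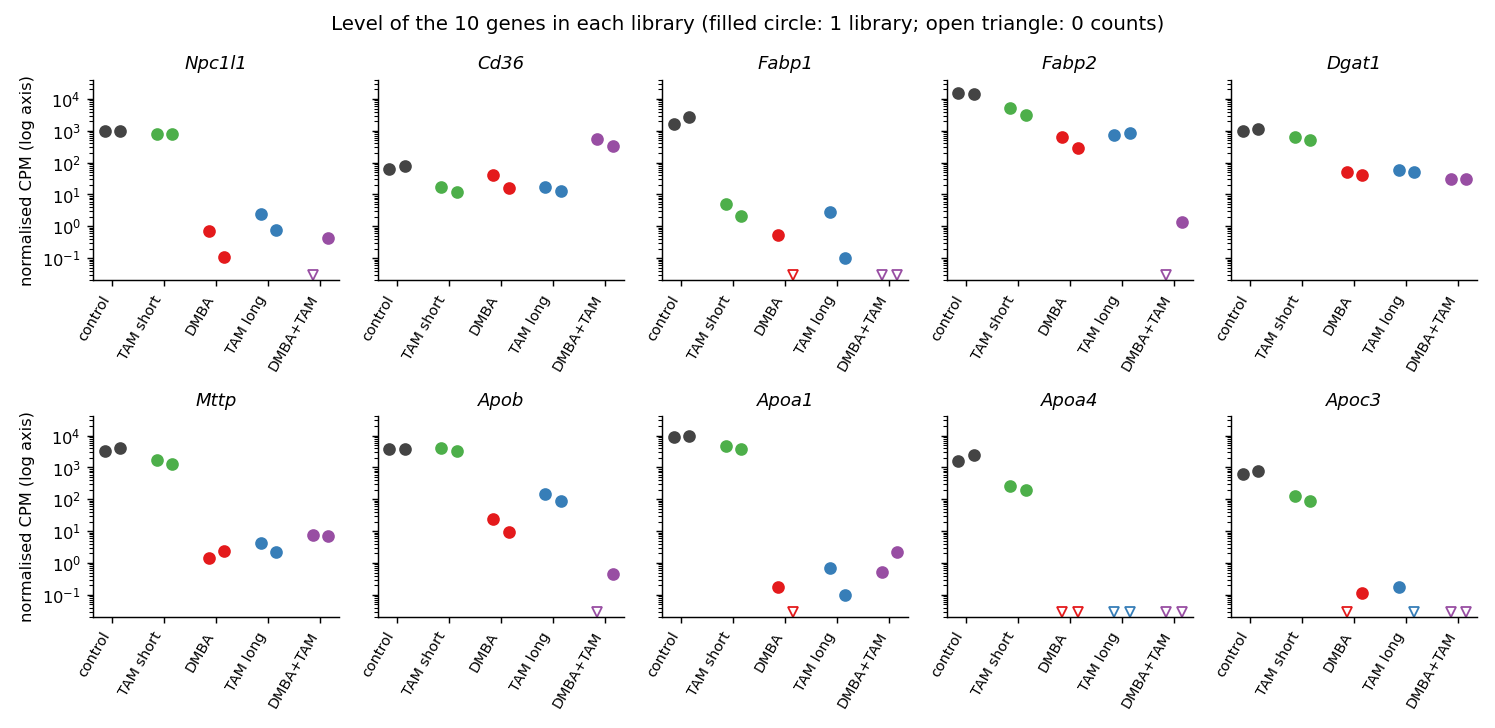
Each panel shows the normalised CPM of 1 gene (vertical axis, logarithmic) in the 2 libraries of each of the 5 groups (horizontal axis), with filled circles for libraries and open triangles for libraries with 0 counts. In the panels of the 9 genes other than Cd36 the DMBA, TAM long and DMBA+TAM libraries lie below both control libraries, whereas Cd36 is highest in DMBA+TAM at 546 and 333.

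All 10 genes were lower in DMBA than in control (quasi-likelihood test of edgeR, p-values adjusted after Benjamini and Hochberg over 16179 genes, threshold 0.05), where 23.3% of all genes tested were lower. All 10 were also lower in TAM long, against 22.8% of all genes. In DMBA+TAM, 9 were lower, against 35.3% of all genes, and Cd36 was higher, against 29.0%. In TAM short 8 were lower, against 7.80% of all genes, and Apob and Npc1l1 did not pass the test. The counts in DMBA, TAM long and DMBA+TAM include Apoa1, Apoa4, Apoc3, Fabp1 and Npc1l1. These genes passed the filter mainly through control and TAM short, so nothing is read from their part in those counts. The members' median log2 fold change was -11.03 for DMBA, -9.68 for TAM long, -1.54 for TAM short and -13.28 for DMBA+TAM (-11.51 with the 3 genes without counts set to their bounds), while the median over all genes was 0.07, 0.05, -0.04 and -0.17. With libraries scaled by their totals only, the median over all genes moved to 0.37 in DMBA and in TAM long and to 0.31 in DMBA+TAM, and the share of calls that were higher moved from 51.2% to 71.1% in DMBA, from 50.5% to 72% in TAM long, from 45.1% to 62.4% in DMBA+TAM and from 45.5% to 58.6% in TAM short. The 4 comparisons share the control libraries. A group of 2 against 2 cannot reach an exact p below 0.333 by itself, so each call rests on the spread that the fit shares over genes and groups.

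**Figure D2:**
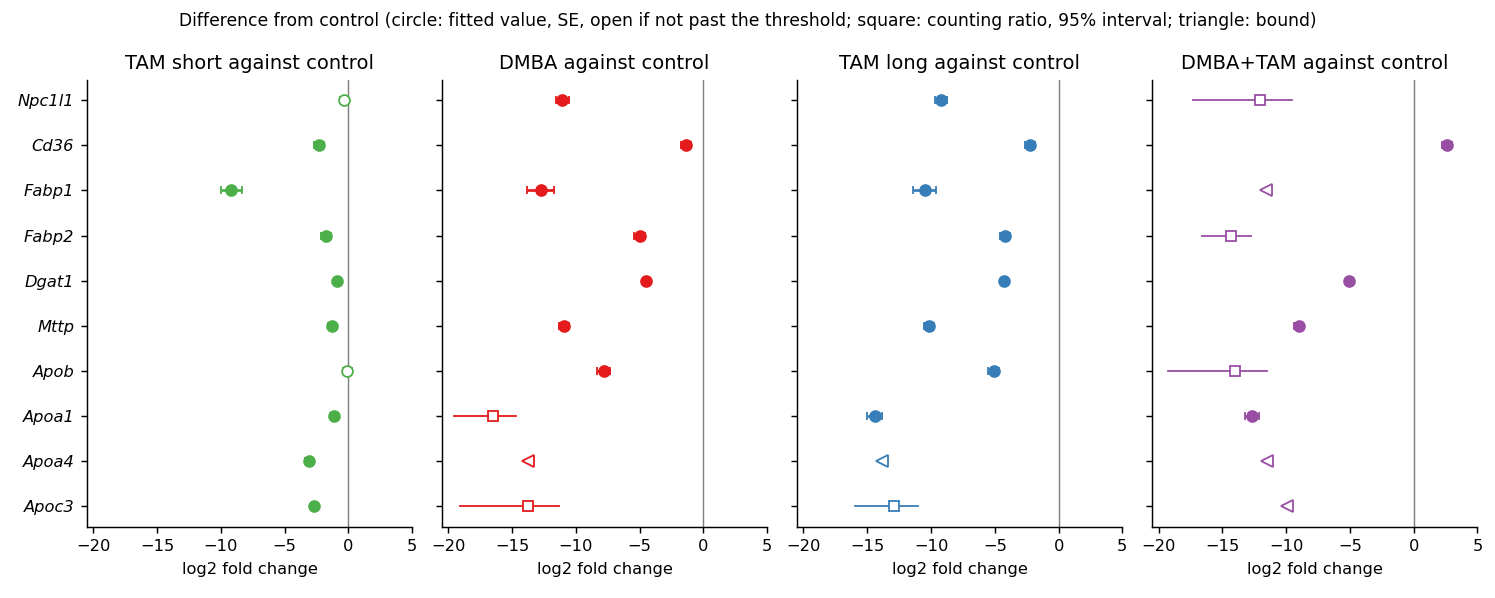
Log2 fold change against control (horizontal axis) of the 10 genes (rows) in the 4 treated groups (panels). Filled circles with SE bars are fitted values past the threshold, open circles are fitted values not past it, open squares are ratios with a 95% counting interval for groups with 1 to 3 counts in all, and open triangles are bounds against 3 counts. Apob and Npc1l1 are the open circles in TAM short, Fabp1 is farthest from 0 there, and Cd36 in DMBA+TAM is the only point to the right of 0.

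Npc1l1 encodes the transporter that takes up cholesterol at the brush border. It stood at 994 and 996 in control and at 817 and 766 in TAM short, a log2 fold change of -0.33 ± 0.30 that did not pass the test (adjusted p = 0.515; 0.0418 when only these groups were fitted, at -0.28). It stood at 0.713 and 0.112 in DMBA (8 and 1 counts), at 2.50 and 0.785 in TAM long and at 0 and 0.44 in DMBA+TAM (0 and 1 counts). The gene was thus at 766 or more in 4 libraries and at 2.50 or less in the other 6. It fell by 11.08 ± 0.51 on the log2 scale in DMBA (adjusted p = 5.16e-07) and fell by 9.20 ± 0.45 in TAM long (adjusted p = 6.03e-07), and the ratio of control to DMBA+TAM was 4150 (95% counting interval 745 to 164000). These sizes rest on library 1 of each group: the fitted values were -12.94 without DMBA library 1, which leaves 1 count, and -10.42 without library 2, and they were -10.28 without TAM long library 1 and -8.64 without library 2, past the threshold each time.

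Cd36, the scavenger receptor that helps fatty acids across the membrane, was the only member that was higher than control in any group. Its level was 62.7 and 79.6 in control, 16.7 and 11.8 in TAM short, 39.7 and 15.5 in DMBA, 17.6 and 12.4 in TAM long, and 546 and 333 in DMBA+TAM. Both DMBA+TAM libraries lay above all others and both control libraries above the remaining 6. The gene rose by 2.62 ± 0.40 on the log2 scale in DMBA+TAM (adjusted p = 0.000257), with 2.20 to 2.91 when any 1 library was left out, and fell by 2.31 ± 0.42 in TAM short (adjusted p = 0.00595) and fell by 2.24 ± 0.41 in TAM long (adjusted p = 0.00171). The fall of 1.36 ± 0.40 in DMBA (adjusted p = 0.018) was lost with scaling by library totals (log2 fold change -1.01, adjusted p = 0.0754), without DMBA library 2 (-0.85, adjusted p = 0.0525), without control library 2 (-1.19, adjusted p = 0.106) and with limma on log2(FPKM + 1) or log2(FPKM + 0.1) (adjusted p = 0.066 and 0.0723).

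The rise of Cd36 stood beside markers of the other cells that are known to express it. The summed level of 7 fat cell markers was 4740 and 2300 in DMBA+TAM and 46.9 to 217 elsewhere, and 6 of them were higher than in control, with Adipoq at 433 and 211 and Fabp4 at 2100 and 827. The sum of 8 endothelial markers was 711 and 708 against 74.2 to 141, with all 8 higher. The sum of 7 macrophage markers was 4400 and 4010 against 149 to 238, with all 7 higher, and the sum of 8 fibroblast markers was 31400 and 32400 against 638 to 2050. Skeletal muscle markers reached 7330 in DMBA+TAM library 2 and 5.27 in library 1. The part of these cells in the Cd36 level was not tested.

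Fabp1 and Fabp2 encode cytosolic fatty acid binding proteins of the enterocyte (Fabp1 is shared with liver). Fabp1 stood at 1590 and 2750 in control, at 5.19 and 2.14 in TAM short, at 0.535 and 0 in DMBA, at 2.75 and 0.0981 in TAM long and at 0 in both DMBA+TAM libraries. It was therefore at 5.19 or less in every treated library, TAM short included. It fell by 9.19 ± 0.83 on the log2 scale in TAM short (adjusted p = 0.000239), the largest fall of a member there (-9.97 without TAM short library 1 and -8.70 without library 2), fell by 12.77 ± 1.03 in DMBA (adjusted p = 2.19e-05) and fell by 10.50 ± 0.88 in TAM long (adjusted p = 2.88e-05). Their sizes depend on single libraries: all 6 counts of DMBA were in library 1, without which the value was -17.03 and gives no size, against -11.95 without library 2, and in TAM long it was -14.21 without library 1, which leaves 1 count, and -9.62 without library 2. Fabp1 stayed past the threshold in these fits. In DMBA+TAM it was at least 2990-fold lower, taken against 3 counts over the group.

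Fabp2 stood at 14900 and 14000 in control. It stood at 5190 and 3240 in TAM short, at 615 and 287 in DMBA, at 726 and 839 in TAM long and at 0 and 1.32 in DMBA+TAM (0 and 3 counts). No pair of groups overlapped, and every library of TAM short lay above every library of the other treated groups. Fabp2 fell by 1.77 ± 0.37 in TAM short (adjusted p = 0.0125), fell by 5.00 ± 0.43 in DMBA (adjusted p = 1.67e-05) and fell by 4.20 ± 0.41 in TAM long (adjusted p = 3.91e-05). The ratio of control to DMBA+TAM was 20100 (95% counting interval 6870 to 97300).

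Dgat1 encodes an enzyme of the last step of triglyceride synthesis, which is at work in many tissues. It stood at 977 and 1140 in control, at 622 and 520 in TAM short, at 49.7 and 42.1 in DMBA, at 59.1 and 49.9 in TAM long and at 31.6 and 30.3 in DMBA+TAM. The level did not go under 30 in any library, and the groups did not overlap, although DMBA library 1 and TAM long library 2 were nearly level. Dgat1 fell by 0.89 ± 0.15 in TAM short (adjusted p = 0.00421), fell by 4.53 ± 0.17 in DMBA (adjusted p = 2.06e-07), fell by 4.28 ± 0.17 in TAM long (adjusted p = 2.38e-07) and fell by 5.10 ± 0.19 in DMBA+TAM (adjusted p = 2.24e-08), all on the log2 scale.

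Mttp, which encodes the protein that loads fat onto APOB, stood at 3360 and 4140 in control and at 1690 and 1330 in TAM short. It stood at 1.43 and 2.35 in DMBA, at 4.30 and 2.16 in TAM long and at 7.37 and 7.03 in DMBA+TAM. It fell by 1.31 ± 0.25 in TAM short (adjusted p = 0.00785), fell by 10.97 ± 0.39 in DMBA (adjusted p = 1.71e-07), fell by 10.16 ± 0.38 in TAM long (adjusted p = 1.85e-07) and fell by 9.02 ± 0.38 in DMBA+TAM (adjusted p = 3.95e-08).

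Apob, the scaffold of the chylomicron, was, with Npc1l1, a member that did not pass the test in TAM short. It stood at 3890 and 3930 in control and at 4030 and 3400 in TAM short, so that the TAM short libraries lie on either side of control (log2 fold change -0.07 ± 0.35, adjusted p = 0.924, with the sign turned under library totals and in 3 other settings). It stood at 24.2 and 9.75 in DMBA, at 142 and 87.6 in TAM long and at 0 and 0.44 in DMBA+TAM, with no overlap among these groups. It fell by 7.83 ± 0.48 in DMBA (adjusted p = 2.15e-06) and fell by 5.09 ± 0.42 in TAM long (adjusted p = 1.20e-05). The ratio of control to DMBA+TAM, which held a single count, was 16300 (95% counting interval 2930 to 644000).

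The coat genes Apoa1, Apoa4 and Apoc3 share a locus. Apoa1, whose product activates the enzyme that esterifies plasma cholesterol, stood at 8810 and 9940 in control, at 4600 and 3830 in TAM short, at 0.178 and 0 in DMBA, at 0.689 and 0.0981 in TAM long and at 0.527 and 2.20 in DMBA+TAM. Apoa4, another surface protein of chylomicrons, stood at 1620 and 2470 in control and at 270 and 201 in TAM short, and had no count in the 6 other libraries. Apoc3, an inhibitor of lipoprotein lipase, stood at 632 and 768 in control and at 128 and 91 in TAM short, and had 0 to 2 counts in each of the others. All 3 were thus near or at 0 in DMBA, TAM long and DMBA+TAM and not in TAM short.

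In TAM short Apoa4 fell by 3.12 ± 0.26 on the log2 scale (adjusted p = 0.000612), Apoc3 fell by 2.67 ± 0.25 (adjusted p = 0.000254) and Apoa1, on the other side of Apoc3, fell by 1.15 ± 0.31 (adjusted p = 0.0333). The differences between these 3 falls were not tested. In DMBA the ratio of control to treated was 94200 for Apoa1 (95% counting interval 26100 to 778000) and 14100 for Apoc3 (2520 to 555000), and Apoa4 was at least 13600-fold lower. In TAM long Apoa1 fell by 14.43 ± 0.56 (adjusted p = 2.03e-07), the ratio for Apoc3 was 7610 (2110 to 62800) and Apoa4 was at least 14800-fold lower. In DMBA+TAM Apoa1 fell by 12.66 ± 0.55 (adjusted p = 4.90e-08), and Apoa4 and Apoc3 were at least 2830-fold and 970-fold lower, bounds that are smaller because fewer reads were counted.

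Single libraries also moved the size of other members' falls, with the direction and the call kept. Without library 1 of the treated group, Apob was at -8.67 and Fabp2 at -5.67 in DMBA, and Mttp was at -10.76 and Apoa1 at -16.33 in TAM long, where 1 count of Apoa1 was left. Without DMBA+TAM library 2, Apoa1 was at -14.11 in DMBA+TAM.

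The fits that leave out 1 library had fewer calls in TAM short, among the members and over all genes. Without control library 2, or without TAM short library 2, 3 members (Apoa4, Apoc3 and Fabp1) were past the threshold, and Mttp, Fabp2, Cd36 and Dgat1 were not (adjusted p from 0.0504 to 0.158), while calls over all genes went from 2317 to 784 and 669. The Apoa1 call (adjusted p from 0.138 to 0.28) was lost whichever library of the comparison was left out, and the Fabp2 call also without control library 1 (adjusted p = 0.0804). With limma at pseudocounts of 1 and 0.1, Fabp2 (adjusted p = 0.0624 and 0.379) and Apoa1 (0.117 and 0.499) were not past the threshold, nor was Apoc3 at 0.1 (0.0574). The log2 fold changes stayed near their values, at -2.14 and -2.09 for Cd36, -1.82 and -1.47 for Fabp2 and -1.29 to -1.03 for Apoa1. Such a fit assumes that the lone library varies like the other groups.

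Besides control and TAM short, DMBA and TAM long are the groups that share a letter. Apob was higher in TAM long by 2.74 ± 0.39 on the log2 scale (adjusted p = 0.00871), against 1.24% of all genes higher, and the other 9 members did not pass the test. Of these, Apoa4 had no count in either group and Apoc3 had 1 in DMBA and 2 in TAM long, so neither could pass. Apoa1, Fabp1 and Npc1l1 had few counts in both groups, and only 5 members had a p when these groups alone were fitted. Fabp2 differed by 0.79 ± 0.37 (adjusted p = 0.272), Dgat1 by 0.25 ± 0.15 (adjusted p = 0.422), Mttp by 0.81 ± 0.36 (adjusted p = 0.259), Npc1l1 by 1.88 ± 0.65 (adjusted p = 0.15) and Cd36 by -0.88 ± 0.41 (adjusted p = 0.273). With 1 library left out these ranged from 0.80 (without TAM long library 1) to 3.72 (without DMBA library 1) for Npc1l1 and from -1.39 (without DMBA library 2) to -0.04 (without DMBA library 1) for Cd36, and they did not pass the test. Fabp2 ranged from 0.35 to 1.45 and was past the threshold without DMBA library 1 (1.45, adjusted p = 0.0261). With no filter, Fabp2, Npc1l1, Fabp1 and Cd36 were past it as well. Their estimates hardly moved (0.79 for Fabp2 and -0.89 for Cd36), while calls over all genes went from 437 to 1615, so nothing is read from these calls. The Apob call was lost in a fit of these groups alone (adjusted p = 0.142) and without TAM long library 1 (log2 fold change 2.36, adjusted p = 0.0734), and it was 3.55 without DMBA library 1, when Apob and Fabp2 were the members past the threshold. Calls over all genes moved as well, from 437 to 1036 without DMBA library 1, to 58 without TAM long library 1, to 125 without TAM long library 2 and to 29 in the fit of these groups alone. The DMBA libraries differed from each other: 7 members were higher in library 1, Mttp and Apoc3 were higher in library 2, and Apoa4 was at 0 in both.

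The remaining comparisons crossed the letters. In TAM long 8 members were lower than in TAM short, against 20.3% of all genes, and Fabp1 (log2 fold change -1.31 ± 0.88, adjusted p = 0.26) and Cd36 (0.07 ± 0.42, adjusted p = 0.909) did not pass the test. Apoa1, Apoa4, Apoc3 and Npc1l1 are among these 8 and passed the filter mainly through control and TAM short, so nothing is read from their part in the count. Fabp1 had 32 of its 33 counts in TAM long library 1, and its log2 fold change was -5.03 without that library. With no filter Fabp1 was past the threshold (adjusted p = 6.72e-05), but the estimate there was -1.33, so nothing is read from that call. With limma on log2(FPKM + 0.1), the Fabp2 calls in this comparison and in TAM short against DMBA were lost (adjusted p = 0.151 and 0.0515). In TAM short 9 members were higher than in DMBA, against 21.8% of all genes. Apoa1, Apoa4, Apoc3, Npc1l1 and Fabp1 are among these 9 and passed the filter in that way too, so nothing is read from their part in the count. Among members with more than 3 counts in DMBA, the differences ran from 3.22 ± 0.40 on the log2 scale for Fabp2 (adjusted p = 0.000173) and 3.63 ± 0.17 for Dgat1 (adjusted p = 8.68e-07) to 10.75 ± 0.51 for Npc1l1 (adjusted p = 9.42e-07). Without DMBA library 1 these values were 12.61 for Npc1l1, where 1 count was left, and 3.9 for Fabp2, and without library 2 they were 10.09 and 2.78. Cd36, at -0.96 ± 0.42 (adjusted p = 0.0858), was not past the threshold there, but it was with no filter (adjusted p = 5.75e-07), with DESeq2 (adjusted p = 0.0409) and with the replicate block (adjusted p = 0.046). Its value was -1.46 without DMBA library 2 and -0.09 without DMBA library 1. The no-filter estimate was -0.94, so its smaller adjusted p reflects the spread estimated in that fit, and nothing is read from its passing the threshold. Fabp1, with 6 counts in DMBA, was past it by edgeR (3.58 ± 1.19, adjusted p = 0.0363) but not by DESeq2 (adjusted p = 0.123) or limma on log2(FPKM + 0.1) (adjusted p = 0.0535), nor by edgeR without DMBA library 2 or either TAM short library (adjusted p from 0.0524 to 0.211). With scaling by library totals, the share of all calls that were higher moved from 52% to 69.9% in TAM long against TAM short, from 47.1% to 31.8% in TAM short against DMBA and from 46.4% to 61.4% in DMBA+TAM against TAM short.

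DMBA+TAM was compared with each treated group as well. Against TAM short, 8 members were lower (33.8% of all genes), Cd36 was higher (29.3%) and Fabp1 did not pass the test (adjusted p = 0.0862), although it did with no filter (3.06e-07), with only these groups fitted (0.00736), with limma (0.01 and 0.00678) and with DESeq2 (0.0471). Apoa1, Apoa4, Apoc3 and Npc1l1 are among these 8 and passed the filter mainly through control and TAM short, so nothing is read from their part in the count. Against DMBA, 3 were lower (29.9% of all genes), namely Apob, Fabp2 and Dgat1, and 3 were higher (25.2%), namely Apoa1, Mttp and Cd36. Apoa1 passed the filter mainly through control and TAM short, so nothing is read from its call. With only these groups fitted, 5 members had a p, of which 3 were lower and 2 higher. Against TAM long, Apob, Fabp2 and Dgat1 were again lower (29.9%), and Mttp and Cd36 higher (25.3%). Npc1l1 was also past the threshold against TAM long with no filter (adjusted p = 0.0175) and with limma on log2(FPKM + 0.1) (0.0351), Fabp1 with no filter (0.00211), and Apoa1 with DESeq2 (0.038). Without TAM long library 2 Npc1l1 was at -3.31, and without TAM long library 1 Apoa1 was at 3.64. Npc1l1, Fabp1 and Apoa1 had at most 37 counts in either group and passed the filter mainly through control and TAM short. Nothing is read from these calls, and 5 members had a p with only these groups fitted. Cd36 was higher than in DMBA by 3.98 ± 0.43 (adjusted p = 3.18e-05; 4.82 without DMBA library 1) and than in TAM long by 4.87 ± 0.45 (adjusted p = 1.01e-05). The counts against DMBA and TAM long, out of 10 members, are near the shares over all genes, and some rest on few reads: Apoa1 had 6 counts in DMBA+TAM and 2 in DMBA, a ratio of 14.5 (95% counting interval 2.59 to 147) whose call was lost without DMBA library 2 (adjusted p = 0.0546) or DMBA+TAM library 2 (adjusted p = 0.403), and Mttp had 30 and 37. The Dgat1 difference from DMBA, -0.57 ± 0.17 (adjusted p = 0.0173), was lost without DMBA library 1 or either DMBA+TAM library (adjusted p from 0.059 to 0.0871), with scaling by library totals (-0.39, adjusted p = 0.111) and with limma (adjusted p = 0.0837 and 0.0853), and the Mttp difference from TAM long, 1.14 ± 0.39 (adjusted p = 0.032), without TAM long library 2 or either DMBA+TAM library (adjusted p from 0.12 to 0.13) and with only these groups fitted (adjusted p = 0.0635). The share of calls that were higher against DMBA moved from 45.7% to 54.8% with library totals.

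The interaction asked whether the difference of DMBA+TAM from TAM long equalled that of DMBA from control. It is signed, and a positive value means that DMBA+TAM lay higher against TAM long than DMBA lay against control. It was past the threshold and positive for Apoa1, Mttp, Cd36 and Dgat1 (21.6% of all genes), and negative for Fabp2 (26.5% of all genes). In both directions 7792 of the 16179 genes tested were past it, so the count of members is near the share over all genes. For Dgat1, which kept over 30 normalised CPM in every library, DMBA lay 4.53 below control on the log2 scale while DMBA+TAM lay 0.82 below TAM long, an interaction of 3.71 ± 0.23 (adjusted p = 1.26e-06). Without an interaction, the group means would give Dgat1 a level of 2.36 in DMBA+TAM, where 31 was measured. Epithelial markers summed to only 32.7 and 22.4 in DMBA+TAM, and the part of the cell mixture in the interaction values was not tested. For Cd36 the interaction was 6.22 ± 0.59 (adjusted p = 1.88e-05), with 439 measured against 5.81 (7.08 without DMBA library 1 and 5.69 without DMBA library 2). For Fabp2 the level measured was 0.659 against 24.5, and it rests on 3 counts. For the other 7 members, Apoa1 and Mttp included, that level was below what 3 counts give in DMBA+TAM, so the low levels of DMBA and TAM long left only a positive value to be seen, and nothing is read from their calls. Among them Apob had a negative estimate (-0.98 ± 1.61, adjusted p = 0.647), which did not pass the test. Titles give control the letter S, DMBA and TAM long the letter L and DMBA+TAM neither, so the term also holds any difference between S and L, and the interaction cannot be told apart from it. The count of 5 members depends on the tool, since DESeq2 gave 9 and limma on log2(FPKM + 1) gave 10, which include such members.

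Levels can be compared between genes only per length. By the deposited FPKM (fragments scaled to transcript length and library size, mean ± SD, n = 2), control organoids had an FPKM of 12700 ± 854 for Fabp2, 9680 ± 592 for Apoa1 and 3310 ± 1180 for Fabp1, which differ beyond their spread. Apoc3 (1180 ± 133), Mttp (1050 ± 130), Dgat1 (1030 ± 89.4) and Apoa4 (951 ± 255) followed within each other's spread, then Apob (433 ± 7.63), Npc1l1 (189 ± 4.23) and Cd36 (23.9 ± 3.44). The length behind the FPKM was shorter than the listed one for 6 members, such as 7649 against 13934 bases for Apob. With listed lengths Dgat1 (475 ± 41.1) dropped below Apoa4, Apoc3 and Mttp, and Apob (238 ± 4.19) stayed between Dgat1 and Npc1l1. In TAM short the order by FPKM began with Apoa1 (4630 ± 606) and Fabp2 (3930 ± 1300), which overlap, and ended with Cd36 (5.12 ± 1.24) and Fabp1 (5.97 ± 3.52).

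Beyond the members, 43 genes of the same pathway were listed by role, of which 40 could be tested (Apoa2, Apoa5 and Apom had too few counts). In DMBA 27 were lower and 7 higher, with a median log2 fold change of -2.03. In TAM long 29 were lower and 7 higher (median -1.94), in DMBA+TAM 31 and 8 (median -3.77), and in TAM short 15 and 4 (median -0.55). Over all genes, the shares that were higher were 6.52% for TAM short, 24.5% for DMBA and 23.2% for TAM long, and the other shares are given above.

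**Figure D3:**
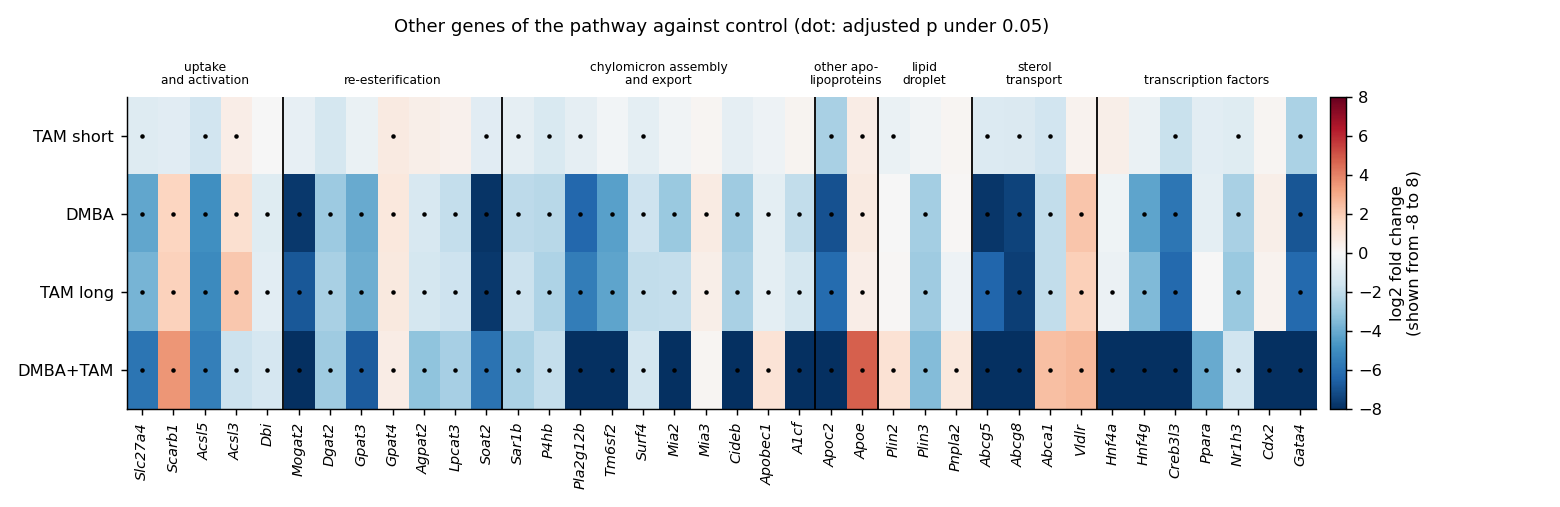
Log2 fold change against control (colour, shown from -8 to 8) of 38 of the 40 tested genes of the wider pathway (columns, grouped by role) in the 4 treated groups (rows). A dot marks an adjusted p under 0.05, and most columns are blue in DMBA, TAM long and DMBA+TAM, with Apoe red in DMBA+TAM.

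Of the 7 genes of re-esterification, 6 were lower in each of DMBA, TAM long and DMBA+TAM, but in TAM short 1 was lower, 1 was higher and 5 did not pass the test. Mogat2, whose product makes diacylglycerol from monoacylglycerol in the gut, went from 547 and 659 in control to 4.55 and 1.01 in DMBA (-7.70 ± 0.49, adjusted p = 2.81e-06). Soat2, which esterifies cholesterol for chylomicrons, went from 351 and 357 to 1.87 and 1.12 (-7.84 ± 0.24, adjusted p = 9.61e-08). In TAM long the log2 fold change was -7.70 ± 0.23 for Soat2 and -6.79 ± 0.46 for Mogat2. Gpat4, which starts glycerolipid synthesis, was the gene of this list that rose, from 46.5 and 50.2 to 88.5 and 85.4 in DMBA, and by 0.72 ± 0.11 in TAM short (adjusted p = 0.00257).

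Of the 10 genes of chylomicron assembly and export, 8 were lower in DMBA+TAM and 9 in each of TAM long and DMBA. Mia2, which helps large cargo leave the endoplasmic reticulum, was higher in TAM long than in DMBA (13.8 and 16.5 against 6.33 and 8.41, log2 fold change 1.04 ± 0.20, adjusted p = 0.035), as was Acsl3, an acyl-CoA synthetase (209 and 242 against 110 and 133, log2 fold change 0.89 ± 0.13, adjusted p = 0.0108). These were the 2 genes of the wider list past the threshold between TAM long and DMBA by edgeR, and both were higher in TAM long.

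Of the 5 sterol transport genes, 3 were lower in DMBA. Abcg5 and Abcg8, which form the pump that returns sterols to the gut lumen, were lower in all 4 treated groups. Abcg5 stood at 309 and 282 in control, 137 and 139 in TAM short, 1.60 and 1.01 in DMBA (-7.78 ± 0.36, adjusted p = 1.07e-06), 4.99 and 2.06 in TAM long and 0 in DMBA+TAM, where it was at least 412-fold lower. Abcg8 fell by 7.54 ± 0.39 in TAM long (adjusted p = 1.97e-06), and was at least 287-fold lower in DMBA+TAM. Vldlr, a receptor that takes lipoproteins in, rose by 2.20 ± 0.28 in DMBA (adjusted p = 0.000186) and by 2.59 ± 0.30 in DMBA+TAM (adjusted p = 3.39e-05). It was also 3.81-fold higher in TAM long than in control.

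Of the 5 genes of uptake and activation, 2 rose and 3 fell in DMBA and in TAM long. Scarb1, a receptor for high-density lipoprotein, rose from 4.63 and 6.73 in control to 21.7 and 15.8 in DMBA (1.73 ± 0.27, adjusted p = 0.000592), to 20.3 and 20 in TAM long (1.83 ± 0.27, adjusted p = 0.000431) and to 60.6 and 73 in DMBA+TAM (3.56 ± 0.28, adjusted p = 2.17e-06). Acsl3 rose by 1.29 ± 0.13 in DMBA (adjusted p = 5.59e-05) and by 2.18 ± 0.14 in TAM long (adjusted p = 2.43e-06), but it was lower in DMBA+TAM, at 13.7 and 16.3 (-1.72 ± 0.17, adjusted p = 1.07e-05), where 4 of the 5 genes were lower. Slc27a4 and Acsl5, a fatty acid transport protein and an acyl-CoA synthetase of enterocytes, were lower in all 4 treated groups (both named after their values were seen).

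The 3 lipid droplet genes, named after their values were seen, did not move one way. Plin3, a coat protein of droplets, stood at 590 and 694 in control and at 97.9 and 93.6 in DMBA (-2.75 ± 0.13, adjusted p = 5.59e-07), and was lower in TAM long and DMBA+TAM too. Plin2, another droplet coat protein, stood at 86.8 and 112 in control and at 215 and 219 in DMBA+TAM, where it was higher (1.13 ± 0.16, adjusted p = 0.00015). Pnpla2, a triglyceride lipase, was higher there as well (0.82 ± 0.32, adjusted p = 0.0459), although its libraries stood at 301 and 128 against 107 and 135 in control and so overlap. In DMBA and TAM long Plin2 and Pnpla2 did not pass the test.

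Among the other apolipoproteins, Apoc2, the activator of lipoprotein lipase, followed the members and Apoe did not. Apoc2 stood at 629 and 1050 in control and at 163 and 121 in TAM short (-2.57 ± 0.33, adjusted p = 0.000951), the largest fall of the wider list there. Apoe, which is made by macrophages among other cells, stood at 133 and 145 in control and at 193 to 233 in the other 6 libraries outside DMBA+TAM, where it reached 3870 and 3770 (4.79 ± 0.15, adjusted p = 1.20e-08). The macrophage markers given beside Cd36 moved with it, and their part in the Apoe level was not tested.

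Against the other treated groups, DMBA+TAM had 22 of the 40 genes lower and 7 higher than DMBA, 23 and 10 than TAM long, and 31 and 6 than TAM short. Over all genes 29.9% were lower and 25.2% higher than in DMBA, 29.9% and 25.3% than in TAM long, and 33.8% and 29.3% than in TAM short. The counts of higher genes are thus near or below the shares over all genes. Abca1, which moves cholesterol out of cells, stood at 456 and 448 in DMBA+TAM and at 19.2 to 33.6 in the other treated libraries, and was higher by 4.34 ± 0.29 than in DMBA (adjusted p = 1.24e-06). Apoe was higher than in DMBA by 4.09 ± 0.14 (adjusted p = 3.02e-08). Soat2 was higher by 1.96 ± 0.33 (adjusted p = 0.000697), with 25 counts in DMBA+TAM. Apobec1, which edits the Apob transcript, was higher than in TAM long by 1.86 ± 0.23 (adjusted p = 8.31e-05). A1cf, a cofactor of that editing, and Mia2 had no count in DMBA+TAM. A1cf was at least 24.8-fold lower than in DMBA and at least 36.5-fold lower than in TAM long, and Hnf4g was at least 26.4-fold and 42-fold lower.

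Of the 8 transcription factors of the list, most of them described singly after their values were seen, 3 were lower in TAM short, 4 in DMBA and 6 in TAM long, and none was higher in these groups. Hnf4a, which controls many enterocyte and liver genes, stood at 973 and 940 in control, at 802 and 727 in DMBA (-0.32 ± 0.17, adjusted p = 0.15) and at 683 and 679 in TAM long (-0.49 ± 0.17, adjusted p = 0.0415). Its paralog Hnf4g stood at 374 and 329, at 21.6 and 15.7 in DMBA (-4.23 ± 0.20, adjusted p = 1.37e-06) and at 34 and 25.8 in TAM long (-3.55 ± 0.20, adjusted p = 2.66e-06). The level of Hnf4g in DMBA was thus a small part of that in control, and that of Hnf4a was not. Cdx2, which sets intestinal identity, stood at 158 and 167 in control, at 265 and 183 in DMBA (0.46 ± 0.19, adjusted p = 0.068) and at 203 and 185 in TAM long (0.25 ± 0.19, adjusted p = 0.293). Creb3l3, a factor of fasting and lipid genes, went from 517 and 683 to 12.1 and 9.98 in DMBA (-5.76 ± 0.24, adjusted p = 3.27e-07), and fell by 1.80 ± 0.20 in TAM short (adjusted p = 0.000424). Gata4, a factor of the upper small intestine, went from 136 and 153 to 36.9 and 13.6 in TAM short (-2.51 ± 0.55, adjusted p = 0.0175) and to 2.23 and 0.112 in DMBA. Ppara did not pass the test in DMBA, Nr1h3 fell by 2.59 ± 0.18 (adjusted p = 4.33e-06), and in DMBA+TAM all 8 were lower, with Hnf4g at 0 and at least 490-fold lower.

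Beside the members, markers of the gut regions moved too. A list of 9 enterocyte markers (such as Alpi, Anpep and Slc5a1) summed to 25400 and 29600 in control, 12700 in both TAM short libraries, 545 and 393 in DMBA, 886 and 842 in TAM long, and 150 and 142 in DMBA+TAM, and 8 of the 9 were lower in DMBA. A list of 10 small intestine markers summed to 15700 and 15600 in control, 36900 and 42600 in TAM short, 233 and 80.1 in DMBA, 1230 and 379 in TAM long, and 4.74 and 4.84 in DMBA+TAM. These sums are carried by few genes: Reg3b alone was 25500 and 30500 of the TAM short sums and 207 and 65 of the DMBA sums. In TAM short 4 markers of this list were higher and 4 lower than in control, with a median log2 fold change of -1.35. Colon markers (6 found of 7) summed to 283 and 311 in control, 209 and 202 in TAM short, 6980 and 2840 in DMBA, 12100 and 4930 in TAM long, and 6.85 and 7.03 in DMBA+TAM, and all 6 were higher in DMBA than in control. In TAM long 5 of the colon markers were higher than in control and 1 did not pass the test. Car1 of this list had no count in control and stood at 6070 and 1140 in DMBA and at 11100 and 2840 in TAM long. It made up most of the colon sum in DMBA library 1 and in both TAM long libraries. The libraries low in the 10 genes but with epithelial markers are thus those high in colon markers. The part of the gut region in the members' levels was not tested.

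**Figure D4:**
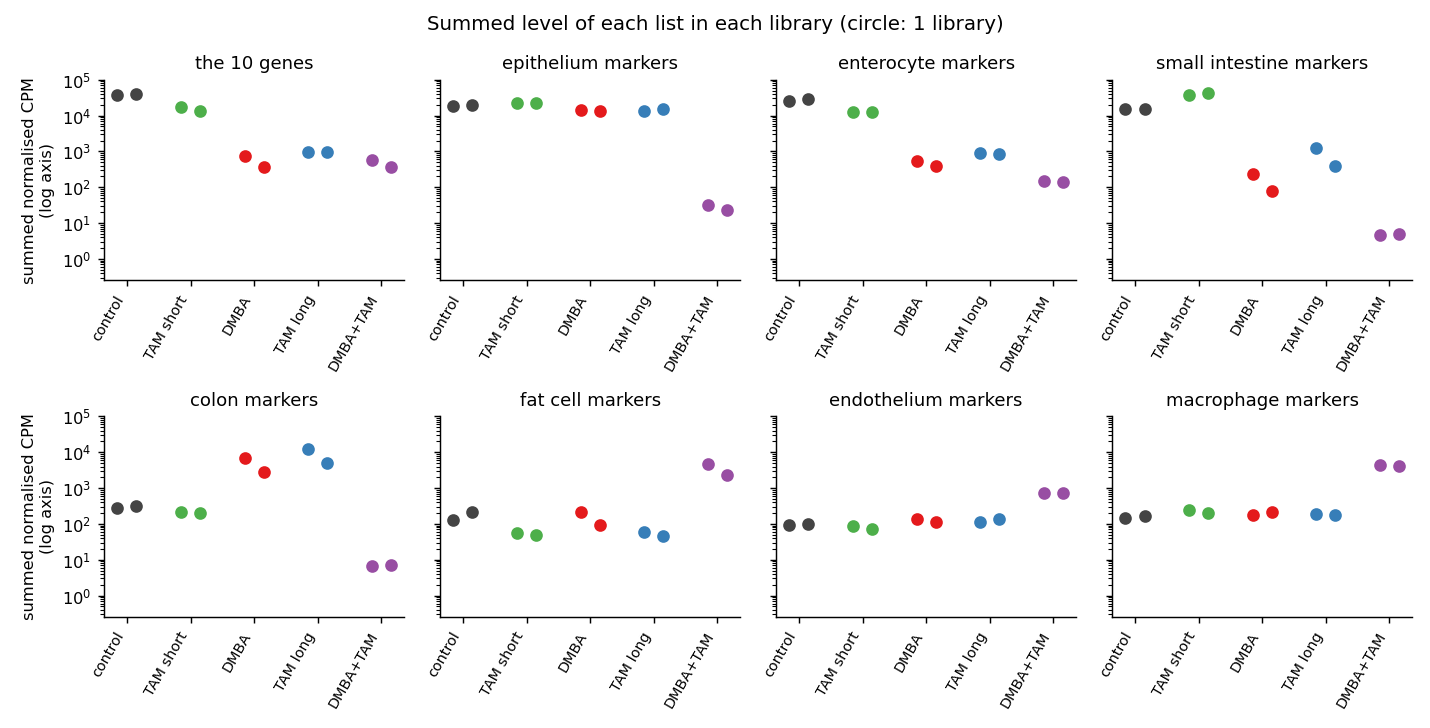
Summed normalised CPM (vertical axis, logarithmic) of the 10 genes and of 7 marker lists in the 2 libraries (circles) of each group. Epithelial markers stay between 13200 and 22700 outside DMBA+TAM while small intestine markers are high in control and TAM short, colon markers are high in DMBA and TAM long, and fat cell, endothelial and macrophage markers are high in DMBA+TAM.

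Within the small intestine list, control and TAM short differed in kind. Lct, the lactase of the upper small intestine, stood at 1280 and 1550 in control and at 3.04 and 0.881 in TAM short (-9.45 ± 0.48, adjusted p = 3.59e-05), beside the -9.19 of Fabp1. Fabp6, the bile acid binding protein of the ileum, stood at 2.82 and 0.24 in control and at 7830 and 8950 in TAM short (12.38 ± 0.74, adjusted p = 1.67e-05). Slc10a2, the ileal bile acid transporter, stood at 5.87 and 3.37 and at 232 and 333 (5.92 ± 1.48, adjusted p = 0.0303), and Fgf15, an ileal hormone, had counts only in TAM short, at 21.2 and 52.3. In TAM short, where Fabp6 was high, Fabp1 and Gata4 were low, while Apob and Npc1l1 stood near their control level. Low levels of Fabp1 and Gata4 were not particular to TAM short. Fabp1 was at 2.75 or less in every DMBA, TAM long and DMBA+TAM library, and Gata4 was 111-fold lower than control in DMBA and 73-fold lower in TAM long. The part of the segment of the small intestine in the TAM short differences was not tested.

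The genes whose pattern lay nearest to that of Apob were found by the root mean square difference of centred log2 normalised CPM over the 10 libraries, among the 11042 genes that averaged 50 or more counts. They were Cyp4f14, a fatty acid hydroxylase (0.835), Ggt1, a gamma-glutamyl transferase (0.933), Reg3b, an antimicrobial lectin (1.33), Slc7a9, an amino acid transporter (1.36), and Rbp2, the retinol binding protein of enterocytes (1.40). Cyp4f14 stood at 1310 and 1220 in control, 815 and 672 in TAM short, 17.8 and 4.48 in DMBA, 35.3 and 33 in TAM long, and 0 and 0.44 in DMBA+TAM. The member nearest to Apob was Fabp2 (1.69), which would stand at rank 22 among those genes, and the farthest was Cd36 (6.34). Among members the closest pair was Apoa4 and Apoc3 (0.801), then Apoc3 and Mttp (0.864), and the widest was Apoa1 and Cd36 (7). The 10 libraries share their groups, so these values only describe likeness.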

How the data were processed

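Poly-A RNA of 10 mouse organoid libraries, 5 groups of 2, was sequenced. The authors aligned reads with TopHat, counted reads per gene with HTSeq and deposited raw counts and FPKM for each library in 1 table (build GRCm38.p6 in the submitters' processing notes). Columns of the authors' own comparisons (fold changes and p-values) were not used. Of 47074 lines, 5 were parts of split lines without counts. Depth is given in the results, and 3 counts, the limit that a count of 0 allows, equal 0.258 to 0.378 normalised CPM in 8 libraries and 1.58 and 1.32 in DMBA+TAM.

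Counts were filtered (filterByExpr), scaled by TMM and fitted with edgeR 4.0.16 (R 4.3.3; quasi-likelihood test, 5 group means in 1 fit over all libraries, 5 residual degrees of freedom, Benjamini-Hochberg adjustment over 16179 genes, threshold 0.05). Where a group had 0 counts in all, the fold was bounded against 3 counts over the group. With 1 to 3 counts, the ratio is given with its exact 95% counting interval. The code was tested on simulated data. Alternatives were scaling by library totals, no filter, DESeq2 1.42.0, limma 3.58.1 on log2(FPKM + 1) and log2(FPKM + 0.1), a test against a log2 fold change of 1, fits of fewer groups, a replicate block and leaving out each library.

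The members, gene lists and tests were chosen with earlier results of these data known. All members are described. Of the wider pathway, up to 3 genes with the largest rise and 3 with the largest fall among those with a mean of at least 50 counts were named against control, between TAM long and DMBA, and between DMBA+TAM and the other treated groups, with defining markers beside results and the 5 genes nearest to Apob, unless stated otherwise. Promoter windows are from RefSeq. Of the wider pathway, 2 genes are not reported here by name.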

Additional observations from a re-analysis of the deposited data

Results flagged for a closer look

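For 5 of the 10 members the difference between DMBA+TAM and TAM long was fitted as unlike the difference between DMBA and control, by the interaction term of the edgeR fit, adjusted over all genes tested. The same term was past the threshold for 7792 of the 16179 genes tested, so the count of members is near the share over all genes. For Dgat1, the member of these 5 with the steadiest libraries, the interaction was 3.71 on the log2 scale (adjusted p = 1.26e-06). For Cd36 it was 6.22 (adjusted p = 1.88e-05). For Fabp2 it was -5.07 (adjusted p = 0.00102), with 3 counts in DMBA+TAM, all in library 2. For Mttp (12.11) and Apoa1 (18.09) DMBA and TAM long alone were already near 0, so that only a positive value could be seen, and nothing is read from these calls. The letters S and L in the titles cannot be told apart from the interaction. Epithelial markers were nearly absent from DMBA+TAM, and their part in these differences was not tested.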

How the results depend on the processing

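The members called in DMBA, TAM long and DMBA+TAM against control numbered 9 to 10 under every alternative run. In TAM short against control, where 8 were called, 3 were when tested against a log2 fold change of 1, 5 with limma on log2(FPKM + 0.1), 9 when only the compared groups were fitted, and 3 to 7 when 1 library was left out. In TAM long against DMBA, where 1 was called, 5 were with no filter, 0 when tested against 1, 0 of the 5 with a p when only the compared groups were fitted, and 0 to 2 when 1 library was left out. In DMBA+TAM against TAM long, where 5 were called, 3 were when tested against 1. For the interaction, where 5 were called, limma gave 10 with a pseudocount of 1 and 9 with 0.1, and DESeq2 gave 9. Over all genes, TAM long against DMBA gave 437 calls, 1615 with no filter, 846 by DESeq2, 290 and 199 by limma at pseudocounts of 1 and 0.1, 29 when tested against 1, 29 with only these groups fitted, and 58 to 1036 when 1 library was left out. TAM short against control gave 2317 calls, 4317 with only these groups fitted, 335 when tested against 1, and 669 to 1057 when 1 library of the comparison was left out.

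Signs turned for values that had not passed the test. Apob in TAM short against control was 0.02 with library totals, 0.01 in both limma fits and 0.04 without TAM short library 2 (-0.20 to 0.04 over the left-out libraries). Cd36 in TAM long against TAM short was -0.16 without TAM short library 2 and -0.22 without TAM long library 1 (range -0.22 to 0.34). In TAM long against DMBA, without TAM long library 1, Apoa1 was -0.01, Apoc3 -2.01 and Fabp1 -1.44, and Apoc3 was -0.25 without DMBA library 1 (ranges -0.01 to 4.70, -2.01 to 2.76 and -1.44 to 6.52 for Apoa1, Apoc3 and Fabp1). In DMBA+TAM against DMBA, Apoc3 was 0.90 by DESeq2 and Npc1l1 0.99 without DMBA library 1 (range -4.98 to 0.99), and Apoc3 against TAM long was 0.02 by DESeq2. The Apob interaction was 3.10 (adjusted p = 0.00049) and 0.71 with limma at pseudocounts of 1 and 0.1. The cause of these changes was not tested.

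Between DMBA and TAM long, the deviations of libraries with the same replicate number had a correlation of 0.26. For the other pairs of groups the correlations ran from -0.0414 to 0.0869, so replicate numbers did not pair those samples. Whether DMBA and TAM long libraries of the same number share a factor was not tested. With the replicate block 10 members were called in DMBA, 8 in TAM short and 10 in TAM long against control, and in TAM short against DMBA 10 in place of 9, with Cd36 added. Genes of the wider list and markers were not refitted under the alternatives. The low depth of DMBA+TAM limits what can be seen of genes near 0 there.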
